A study of Mus musculus with 16 samples.

Results

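Acetylation of lysine 27 of histone H3 (H3K27ac) was measured in mouse liver, and the regions described here are those that lie far from any protein-coding gene. A region was taken as distal when it lay on chromosomes 1 to 19 and its midpoint was inside no protein-coding gene and more than 50 kb from the nearest end of one. By this rule 3433 of the 52645 regions of the deposited table were distal, which is 6.62% of the 51833 regions on those chromosomes. The rule used position alone and no measured value. Of the distal regions 3431 had enough counts to be tested, and the other 2 are accounted for only in the counts of members.

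The livers came from 4 groups with 3 H3K27ac libraries each. KO PTU/LID mice lacked NCoR1 and were fed PTU/LID, a low iodine diet with 0.15% propylthiouracil. KO chow mice lacked NCoR1 and were fed chow. WT PTU/LID mice had intact NCoR1 and the PTU/LID diet, and WT chow mice had intact NCoR1 and chow. All groups share the strain label C57BL/6J, a light cycle of 12 h, a diet that began at 6 weeks of age and lasted 3 weeks, and collection on day 21. The labels do not say how or in which cells Ncor1 was deleted, nor the sex of the mice, which limits what the KO groups stand for. They also do not say that the libraries of a group come from separate animals, so p-values measure only the spread between these libraries. Each library is named by its genotype and its number in the labels, and values of a group are given in this order: KO_211, KO_232 and KO_239 for KO PTU/LID, KO_122, KO_146 and KO_190 for KO chow, WT_135, WT_155 and WT_280 for WT PTU/LID, and WT_106, WT_96 and WT_99 for WT chow.

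H3K27ac is found at active promoters and enhancers, and enhancers can act on genes over long distances along the chromosome. NCoR1 is a corepressor that binds nuclear receptors, the thyroid hormone receptor among them, and brings histone deacetylase 3 to chromatin, which removes acetyl groups from histones. Propylthiouracil with low iodine blocks the making of thyroid hormone, so the mice become hypothyroid, and the series was designed to set euthyroid against hypothyroid livers with and without NCoR1. Regions far from coding genes can hold enhancers of remote genes, or promoters of noncoding RNAs.

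Distal regions are named by their coordinates in mm10, counted from 1, and by the nearest coding gene on each side. No genome of that build was used here, so the bases of the regions themselves are not printed. Where a distal region holds part of the promoter of a long noncoding RNA (lncRNA), the RefSeq promoter window on GRCm38.p6, the same assembly, runs from 250 bases before the start to 50 after it. Distal regions held part of 185 such windows. A window of each of 6 of these genes is shown because their regions carry differences described below. These genes were chosen after their values were seen. Capitals mark matches on either strand to the nuclear receptor core site AGGTCA, the FOXA motif TGTTTAC, the CEBP motifs TTGCGCAA, TTGCACAA and TTGCAT, or the STAT motif TTCNNNGAA, and each sequence is written 5′ to 3′ on the strand of the gene.
Gm29924, chr5:51289281-51289580, minus strand: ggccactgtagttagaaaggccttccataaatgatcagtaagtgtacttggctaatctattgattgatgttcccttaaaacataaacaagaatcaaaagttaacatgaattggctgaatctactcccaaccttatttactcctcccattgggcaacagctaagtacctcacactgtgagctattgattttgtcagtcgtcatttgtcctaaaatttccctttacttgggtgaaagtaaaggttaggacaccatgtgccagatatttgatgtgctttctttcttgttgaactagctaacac
Gm19619, chr5:91283027-91283326, minus strand: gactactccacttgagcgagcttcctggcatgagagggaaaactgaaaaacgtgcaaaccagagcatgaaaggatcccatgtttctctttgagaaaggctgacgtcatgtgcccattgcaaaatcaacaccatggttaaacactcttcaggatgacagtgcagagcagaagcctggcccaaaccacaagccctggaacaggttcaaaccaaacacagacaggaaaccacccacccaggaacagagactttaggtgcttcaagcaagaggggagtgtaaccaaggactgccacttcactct
Gm35164, chr14:28649463-28649762, plus strand: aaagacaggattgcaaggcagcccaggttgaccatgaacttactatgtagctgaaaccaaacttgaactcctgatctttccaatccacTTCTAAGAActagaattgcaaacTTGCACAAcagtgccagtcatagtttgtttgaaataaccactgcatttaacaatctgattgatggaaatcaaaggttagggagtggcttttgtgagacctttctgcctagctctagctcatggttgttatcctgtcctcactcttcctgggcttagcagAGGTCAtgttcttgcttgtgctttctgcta
1810053B23Rik, chr16:93353140-93353439, minus strand: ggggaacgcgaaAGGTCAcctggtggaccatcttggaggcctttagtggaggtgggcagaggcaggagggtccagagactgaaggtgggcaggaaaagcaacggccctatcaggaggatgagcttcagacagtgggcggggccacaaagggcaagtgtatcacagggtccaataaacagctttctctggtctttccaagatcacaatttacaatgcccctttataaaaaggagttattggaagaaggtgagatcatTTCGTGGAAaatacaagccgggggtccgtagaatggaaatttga
Lexis1, chr4:53218312-53218611, minus strand: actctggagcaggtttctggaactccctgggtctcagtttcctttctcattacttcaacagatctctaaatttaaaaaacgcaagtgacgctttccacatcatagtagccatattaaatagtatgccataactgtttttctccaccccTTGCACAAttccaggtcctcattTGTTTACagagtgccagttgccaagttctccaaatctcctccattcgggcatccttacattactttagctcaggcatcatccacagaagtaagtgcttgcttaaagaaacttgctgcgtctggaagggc
Mir99ahg, chr16:77329078-77329377, plus strand: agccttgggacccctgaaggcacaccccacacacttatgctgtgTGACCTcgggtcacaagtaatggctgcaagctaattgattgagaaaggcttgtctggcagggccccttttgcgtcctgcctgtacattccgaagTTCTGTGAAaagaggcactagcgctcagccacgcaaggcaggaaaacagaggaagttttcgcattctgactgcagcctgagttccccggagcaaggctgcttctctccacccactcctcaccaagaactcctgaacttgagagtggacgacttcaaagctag

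The windows of Gm29924 and Gm19619 held none of these letters, and the printed window of Lexis1 held a FOXA and a CEBP match. Another Lexis1 window, chr4:53218632-53218931, lies wholly inside the same distal region and held no match. Another 1810053B23Rik window, chr16:93354022-93354321, held 1 core site and no other match. The core site was found in 23.8% of the 185 windows in distal regions, in 19.1% of the windows of all lncRNA genes and in 16.3% of all windows. The CEBP motifs were found in 17.8%, 13.4% and 11.7% of the same 3 sets, FOXA in 4.86%, 4.83% and 3.65%, and the STAT motif in 8.65%, 9.41% and 8.3%. Pairs of core sites as direct repeats with 4 or 1 bases between them were in none of the 185 windows, and in 0.0431% and 0.0259% of the windows of all lncRNA genes. A match is a description of letters and shows no binding. The core site is part of both direct repeats, and the other motifs hold no shared stretch that makes one a match of another.

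MicroRNAs are short RNAs that pair with messenger RNAs through their seed, bases 2 to 8, shown in capitals. The hairpin of Mir802 lies inside a distal region, and those of Mir29a and Mir29b-1 lie 15.7 and 15.4 kb from the longest run of distal regions, which is why their mature sequences from RefSeq are shown.
mmu-miR-802-5p: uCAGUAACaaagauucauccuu
mmu-miR-802-3p: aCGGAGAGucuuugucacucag
mmu-miR-29a-3p: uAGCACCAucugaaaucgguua
mmu-miR-29b-3p: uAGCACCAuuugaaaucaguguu

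Both miR-29 sequences share the seed AGCACCA. Of 1005 hairpin genes in RefSeq, 18 lay within 20 kb of a distal region and 2, Mir802 and Gm51276, overlapped one.

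The values are CPM, the reads in a region scaled to the same total of reads over all regions in every library. Libraries held 2965505 to 7416187 counts, and the median distal region had 25 to 59 counts in a library. Libraries differed in how many of their counts lay on chrM, the mitochondrial genome. In 7 libraries this share was above 2%: KO_211, all 3 of KO chow (3.0% to 17.25%), WT_135, and WT_96 and WT_99. In the other 5 libraries it was 0.72% to 1.08%. All KO chow libraries thus belong to the higher set, and comparisons are also given within a set. The regions inside Ncor1 summed to 42.7 to 52.4 CPM in KO PTU/LID, 41.4 to 57.5 in KO chow, 46.3 to 56.5 in WT PTU/LID and 41.0 to 55.4 in WT chow; since the deleted part is not given, this checks no label. Regions at all 8 hepatocyte marker genes were acetylated (2052 to 2303, 1607 to 1795, 1493 to 2159 and 1393 to 1955 CPM in the same order of groups). Regions at markers of other cells moved between the groups. Those of lymphocytes (2 of 5 genes have a region) summed to 44.5 to 57.4 CPM in KO PTU/LID, 84.1 to 119 in KO chow, 33.9 to 46.0 in WT PTU/LID and 74.0 to 79.4 in WT chow, and those of sinusoidal endothelium (6 of 7 genes) to 469 to 491, 516 to 547, 521 to 638 and 622 to 671. Those of Kupffer cells (3 of 8 genes) were 23.2 to 38.6, 27.2 to 33.3, 23.5 to 30.2 and 42.8 to 56.9 CPM. Their part in the differences below was not tested. In whole liver, fewer cells of a type and less acetylation per cell cannot be told apart.

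Distal regions were similar in size and level to the rest. Their median length was 442 bp, against 472 bp for the other regions on the same chromosomes, and their median level was 7.93 CPM, against 8.99 CPM. Per length the medians were 18 and 18.8 CPM per kb. In all, 77 distal regions (2.24%) reached 100 CPM, as did 976 of the others (2.02%). The median distance to a coding gene was 104 kb and the longest 1770 kb, with 1640 regions at 50 to 100 kb, 1263 at 100 to 250 kb and 530 farther away. Just inside the limit, at 50 to 51 kb, were 56 regions with a median of 8.47 CPM, and just outside, at 49 to 50 kb, were 63 with a median of 10.62 CPM. Chromosome 13 had the highest share of its regions distal (11.5%) and chromosome 19 the lowest (2.98%).

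Many distal regions lay in noncoding genes. Of the 3433, 1042 (30.4%) were inside 400 lncRNA or microRNA genes, and 522 were more than 50 kb from a gene of any type. Lncpint, an lncRNA known as a target of p53, held 47 of them, Gm31718 held 20 and Pvt1, the lncRNA next to the Myc oncogene, held 15. The highest distal region, chr17:39843075-39848314, averaged 1983 CPM and lay beside Rn18s-rs5, a copy of ribosomal RNA sequence, where reads from the many near-identical ribosomal DNA copies cannot be told apart; its libraries ranged from 806 to 4727 CPM and it passed no test. The next highest, chr2:27594860-27601533, averaged 361 CPM between Wdr5 (61.7 kb) and Rxra (78.2 kb), the gene of a common partner of nuclear receptors. It ranged from 363 to 463 CPM in KO PTU/LID, 274 to 425 in KO chow, 217 to 431 in WT PTU/LID and 277 to 444 in WT chow, so the groups overlapped, and it passed no test.

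Distal regions took 6.53% ± 0.0086 of counts in KO PTU/LID, 5.84% ± 0.342 in KO chow, 6.09% ± 0.275 in WT PTU/LID and 5.97% ± 0.0853 in WT chow (SD, n = 3 each). Without chrM and the nuclear regions that track it the shares were 6.61%, 6.42%, 6.2% and 6.21%.

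Each comparison was tested with edgeR's quasi-likelihood test over all 52606 tested regions, and a region was called when its Benjamini-Hochberg adjusted p was below 0.05. Among distal regions, 402 were called for PTU/LID against chow in KO (11.7%, against 6.21% of all tested regions) and 172 in WT (5.01%, against 3.7%). For KO against WT, 292 were called on PTU/LID (8.51%, against 3.86%) and 165 on chow (4.81%, against 2.43%). The diet effect differed between genotypes at 15 (0.437%, against 0.23%). No test was made of distal against other regions. Intergenic regions nearer to genes, at 2.5 to 50 kb from a gene end, had 10.7% called for the diet in KO, 6.26% for the diet in WT, 5.84% for KO against WT on PTU/LID, 4.15% on chow and 0.449% for the interaction. For the diet in WT and the interaction these shares were thus above those of distal regions. Of the tested regions with a mean of at least 20 CPM, the called shares were 17.9% of distal and 8.19% of other regions for the diet in KO, 9.75% and 6.9% for the diet in WT, 18.8% and 7.39% for KO against WT on PTU/LID, and 8.43% and 3.82% on chow.

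Distal regions with a gap of at most 10 kb were joined into clusters. This gave 801 clusters of 2 or more regions, holding 2725 of the 3433, with a median of 3 regions and 2.69 kb; 708 regions stayed single. Neighbours are not independent of each other. Tested on summed counts over all clusters and single regions of the table, 153 distal clusters were called for the diet in KO (19.1%, against 8.82% of all 16709 tested), 108 for the diet in WT (13.5%, against 7.27%), 145 for KO against WT on PTU/LID (18.1%, against 6.46%), 85 on chow (10.6%, against 4.53%) and 13 for the interaction (1.62%, against 0.449%). Among all other clusters of 2 or more regions the shares were 10.4%, 9.1%, 8.04%, 5.68% and 0.589%. These counts rest in part on single libraries. The count for the diet in KO was 89 without KO_239 and 97 without KO_122, and that for the diet in WT was 64 without WT_155, 41 without WT_280, and 56, 63 or 57 without WT_106, WT_96 or WT_99. For KO against WT it was 95 or 87 on PTU/LID without KO_232 or KO_239, and 54, 54, 40 or 46 on chow without KO_122 or KO_190 or WT_106 or WT_99. For the interaction it was 8, 5, 5, 4, 22, 6, 5, 8 or 6 without KO_232 or KO_239, KO_122 or KO_190, WT_135 or WT_280, or WT_106, WT_96 or WT_99.

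**Figure D1:**
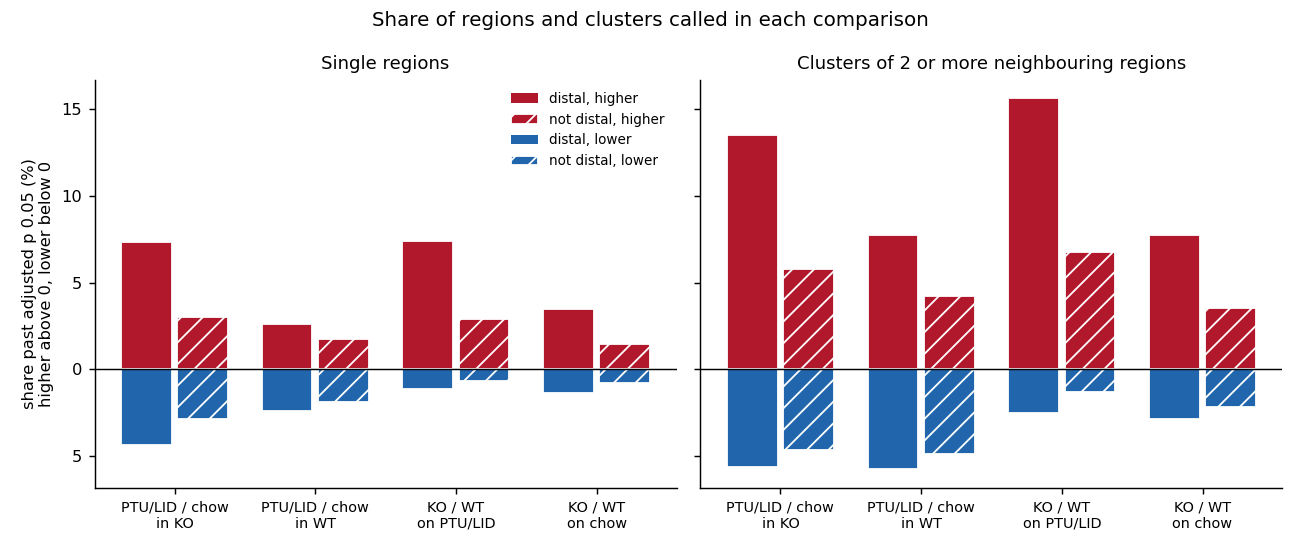
Share of tested regions (left) and clusters (right) called at adjusted p below 0.05 in each comparison, in percent. Solid bars are distal and hatched bars are not distal, with red for higher and blue for lower. The tallest distal bars of single regions are higher calls, 7.37% for KO against WT on PTU/LID and 7.34% for the diet in KO.

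In livers without NCoR1, the PTU/LID diet went with higher acetylation at 252 distal regions and lower acetylation at 150 (3.28% and 2.94% of all tested regions were called higher and lower). Regions between 100 and 250 kb from a coding gene counted 108 higher and 33 lower, those at 50 to 100 kb 100 higher and 93 lower, and those over 250 kb 44 higher and 24 lower. The median log2 fold changes of these classes were 0.097, 0.001 and 0.029, in no order of distance. Of the 6 regions named for the size of their rise, that with the smallest p lies inside Lncpint, at chr6:31100296-31101639. It had 46.0, 38.2 and 60.2 CPM in KO PTU/LID, against 13.8, 12.1 and 15.6 CPM in KO chow. Every KO PTU/LID library was above every KO chow library, a log2 fold change of 1.80 ± 0.21 (SE, adjusted p = 5.11e-08). In WT the groups overlapped, with 26.3, 18.3 and 20.9 CPM on PTU/LID and 18.4, 16.5 and 26.5 CPM on chow.

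The other 5 regions with the largest rises in KO were as follows. A region 79.2 kb from Rragc, a GTPase of nutrient sensing, at chr4:124015983-124016457, rose by 1.96 ± 0.29 on the log2 scale (adjusted p = 1.26e-05), with 17.9, 9.39 and 13.9 CPM on PTU/LID and 3.81, 3.16 and 3.36 CPM on chow. A region in Gm39447, 143.9 kb from Stt3b, a subunit of the enzyme that attaches sugar chains to proteins, had 8.70, 19.1 and 13.7 CPM against 2.0, 4.84 and 3.97 CPM (1.96 ± 0.32, adjusted p = 5.39e-05). Between Apip and Ehf, a transcription factor of epithelia, chr2:103208706-103209053 rose by 1.86 ± 0.36 (adjusted p = 0.000538), and between Pgrmc2 and Jade1, chr3:41408762-41409638 rose by 1.74 ± 0.23 (adjusted p = 1.01e-06). Near Aldh8a1, a dehydrogenase of tryptophan breakdown, chr10:21446881-21448836 had 69.1, 60.9 and 70.1 CPM on PTU/LID, against 27.8, 21.6 and 12.1 CPM on chow (1.71 ± 0.20, adjusted p = 6.25e-08). Groups that did not overlap were part of how every region named for the size of its change was chosen. This holds for each pairwise comparison.

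Falls in KO were largest at chr8:76540224-76540661, 357.6 kb from Nr3c2, the mineralocorticoid receptor gene. That region had 2.05, 1.10 and 1.17 CPM in KO PTU/LID, against 10.2, 10.4 and 11.2 CPM in KO chow (log2 fold change -2.94 ± 0.37, adjusted p = 3.63e-07), groups well apart at a low level. A region 126.4 kb from Mreg had 3.58, 1.10 and 0.58 CPM against 10.5, 8.0 and 9.32 CPM (-2.60 ± 0.38, adjusted p = 7.07e-06). Inside the lncRNA Gm33782, 254.7 kb from Btg1, an antiproliferative gene, chr10:96361957-96362666 had 3.58, 4.28 and 3.50 CPM against 17.1, 17.7 and 26.4 CPM (-2.42 ± 0.26, adjusted p = 1.11e-08). It fell in WT too, to 3.58, 3.23 and 5.54 CPM, against 13.9, 12.99 and 14.1 CPM (-1.71 ± 0.28, adjusted p = 0.000155).

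The remaining 3 of the 6 largest falls in KO lie among the Mup genes, which encode the major urinary proteins made by liver. Near the pseudogene Mup-ps9, chr4:61165440-61167206 had 15.1, 20.3 and 18.8 CPM in KO PTU/LID, against 120, 77.6 and 114 CPM in KO chow (-2.51 ± 0.20, adjusted p = 1.31e-11). Mup genes and pseudogenes are near-identical copies, so reads may be shared between them and the place of the signal is uncertain. The region is part of a cluster of 10, chr4:61149661-61168646, whose summed level was 124, 132 and 152 CPM in KO PTU/LID, against 721, 530 and 620 CPM in KO chow (-2.19 ± 0.14, adjusted p = 1.3e-10). A second cluster of 6 between Mup8 and Mup9 had 73.8, 72.1 and 78.6 CPM against 307, 252 and 297 CPM (-1.93 ± 0.13, adjusted p = 1.38e-10). Both clusters also fell in WT, by 1.77 ± 0.15 and 1.61 ± 0.13 on the log2 scale (adjusted p = 2.1e-08 for each).

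Among clusters, the largest rises in KO were at 4 regions in Gm39447 (66.8, 85.9 and 78.3 CPM on PTU/LID, against 20.5, 32.1 and 25.2 CPM on chow; 1.58 ± 0.29, adjusted p = 0.00397), at a pair more than 1 Mb from any coding gene between Pcdh20 and Pcdh9 (1.57 ± 0.18, adjusted p = 2.78e-06) and at 5 regions between Uaca and Tle3, a corepressor (45.8, 44.9 and 46.0 CPM against 18.9, 16.1 and 15.4 CPM; 1.44 ± 0.18, adjusted p = 7.59e-06). All 5 regions of the Tle3 cluster were called higher on their own (against 3.28% of all tested regions). All KO chow libraries are in the higher chrM set, and against them KO_211, the 1 library of its group in that set, gave 231 distal calls, 115 higher and 116 lower, with its spread taken from the other groups. Leaving out KO_232 or KO_239 or KO_122 left 247, 238 or 243 calls.

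In WT livers the diet called 172 distal regions, 90 higher and 82 lower (1.81% and 1.9% of all tested). DESeq2 called 191, with 63.9% of them higher, against 52.3% in edgeR's test, so the split between directions depends on the tool. The largest rise among regions whose groups did not overlap was at chr4:123990436-123990652, 53.5 kb from Rragc, with 2.39, 5.17 and 8.42 CPM in WT PTU/LID, against 1.65, 1.90 and 1.10 CPM in WT chow (1.81 ± 0.44, adjusted p = 0.0142). This region is low, and its WT PTU/LID libraries are far apart among themselves; the call was lost without WT_280, WT_106 or WT_99 (adjusted p of 0.059 to 0.194). Better separated was chr3:85199180-85199497, 220.1 kb from Fbxw7, which marks proteins for breakdown, with 15.2, 15.7 and 8.83 CPM against 4.13, 4.12 and 4.69 CPM (1.61 ± 0.32, adjusted p = 0.0023). Near Nudt4, chr10:95616374-95616949 had 20.3, 15.3 and 17.3 CPM against 7.44, 5.07 and 4.97 CPM (1.54 ± 0.28, adjusted p = 0.000597). Both of these rose in KO as well, by 1.46 ± 0.36 (adjusted p = 0.00791) and 0.83 ± 0.25 (adjusted p = 0.0358), calls lost without KO_232 or KO_190 (0.061 to 0.177), and without KO_232, KO_239, KO_122 or KO_190 (0.131 to 0.258).

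The other named rises in WT were in Gm41708, 133.8 kb from Pabpc2 (1.51 ± 0.34, adjusted p = 0.00702), between Igsf21 and Arhgef10l (1.46 ± 0.34, adjusted p = 0.0106) and near Otos (1.45 ± 0.32, adjusted p = 0.00561). These calls were lost without WT_155 or WT_106, without WT_280 or WT_99, and without WT_96 (adjusted p of 0.053 to 0.1). Clusters that rose included 2 regions 160.6 kb from Jun, a subunit of AP-1, at 23.3, 22.0 and 26.7 CPM on PTU/LID against 10.8, 7.95 and 12.0 CPM on chow (1.21 ± 0.27, adjusted p = 0.00865; lost without WT_280, adjusted p = 0.05), and 2 regions 131.8 kb from Bcl6 (1.25 ± 0.24, adjusted p = 0.00231). Bcl6 is a transcriptional repressor.

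The steepest fall in WT was at chr15:60993236-60993552, 72.1 kb from A1bg, with 1.79, 0.86 and 0.62 CPM on PTU/LID, against 4.63, 6.33 and 4.69 CPM on chow (-2.30 ± 0.43, adjusted p = 0.000933). A region in 2610307P16Rik, chr13:28861041-28861631, 87.6 kb from the developmental transcription factor gene Sox4, had 5.08, 3.88 and 3.90 CPM against 20.8, 21.5 and 17.4 CPM (-2.23 ± 0.26, adjusted p = 1.45e-07). It had 6.14, 6.76 and 6.56 CPM in KO PTU/LID, against 19.6, 21.4 and 16.1 CPM in KO chow (-1.54 ± 0.23, adjusted p = 8.01e-06), so in each genotype the diets stood apart. Between Cebpb and Ptpn1, chr2:167841668-167842681 fell in WT to 3.29, 10.1 and 8.01 CPM, against 36.04, 20.6 and 27.1 CPM (-1.94 ± 0.26, adjusted p = 3.61e-06), and in KO to 12.5, 17.0 and 13.6 CPM, against 33.8, 40.0 and 38.8 CPM (-1.37 ± 0.23, adjusted p = 5.98e-05). Cebpb encodes a liver transcription factor and Ptpn1 a phosphatase that acts on the insulin receptor.

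A pair of regions between Shcbp1 and Slc10a2, the ileal bile acid transporter gene, summed to 27.5, 30.7 and 23.5 CPM in WT PTU/LID, against 107, 66.5 and 67.7 CPM in WT chow (-1.58 ± 0.23, adjusted p = 0.000455), and also fell in KO (-1.28 ± 0.21, adjusted p = 0.000705). Within the higher chrM set the WT diet comparison gave 60 distal calls, with WT_135 as its 1 PTU/LID library, and within the lower set 158, with WT_106 as its 1 chow library; the spread of these lone libraries was taken from the other groups. Leaving out 1 library moved the 172 calls to 277 (WT_135), 98 (WT_155), 63 (WT_280), 97 (WT_96) or 81 (WT_99).

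The groups compared for the diet in WT and in KO share no library. Both comparisons take their spread from 1 fit over all 12 libraries, so their calls are not independent. Of 90 regions higher in WT and 252 higher in KO, 35 were in both lists, which is 38.9% of the WT list and 13.9% of the KO list. Of 82 lower in WT and 150 lower in KO, 45 were in both, 54.9% and 30%. In all, 321 of the 3431 tested were called in KO alone, 92 in WT alone and 80 in both. Over all tested regions, 1.81% were called higher in WT and 3.28% in KO, and 1.9% and 2.94% lower. The overlap of the lists over all tested regions is not given here, so these counts show nothing particular to distal regions. Being called in 1 genotype alone does not show that the genotypes differ, which the interaction tests.

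**Figure D2:**
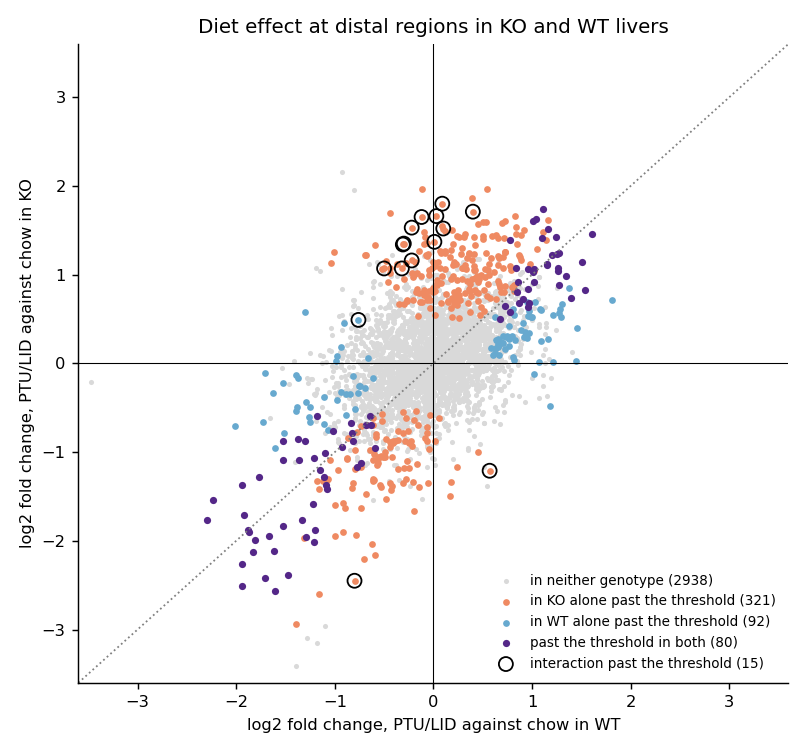
Log2 fold change of PTU/LID over chow in WT (x axis) and in KO (y axis) for the 3431 tested distal regions, coloured by where they were called. The 15 circled regions passed the interaction test, and 13 of them lie above the diagonal, where the KO value is the larger.

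On PTU/LID, KO livers had 253 distal regions higher than WT and 39 lower (3.17% and 0.698% of all tested). The largest rise was at chr10:17010732-17011042 in the lncRNA Gm20125, with 3.32, 5.8 and 4.81 CPM in KO PTU/LID, against 0.90, 1.08 and 0.41 CPM in WT PTU/LID (2.57 ± 0.46, adjusted p = 0.000487; 1.86 with adjusted p = 0.421 within the higher chrM set). A neighbour in the same lncRNA, chr10:16994258-16994898, had 16.6, 12.7 and 15.3 CPM against 3.29, 3.66 and 3.70 CPM (2.04 ± 0.29, adjusted p = 2.41e-05). Cited2, a regulator of CBP and p300, the enzymes that place this mark, is the nearest coding gene on that side, at 728.6 kb.

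Between Gclc, which encodes the catalytic subunit for glutathione synthesis, and Elovl5, a fatty acid elongase, a pair of regions stood high in KO. At chr9:77850435-77851880, which touches the promoter window of the lncRNA Gm34654, KO PTU/LID had 57.5, 45.8 and 33.4 CPM, against 9.26, 10.8 and 6.77 CPM in WT PTU/LID (2.34 ± 0.24, adjusted p = 4.41e-08). On chow the same region had 28.7, 31.6 and 25.1 CPM in KO, against 8.10, 16.5 and 10.8 CPM in WT (1.32 ± 0.24, adjusted p = 0.000921). No KO library fell as low as any WT library on either diet. On PTU/LID this was part of how the region was chosen. Its neighbour chr9:77846238-77850307 had 149, 150 and 134 CPM in KO PTU/LID, against 59.5, 60.9 and 36.5 CPM in WT PTU/LID (1.47 ± 0.19, adjusted p = 4.5e-06), while on chow the genotypes overlapped (0.21 ± 0.18, adjusted p = 0.585).

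Tbl1xr1 encodes a subunit of the NCoR1 corepressor complex itself. The region chr3:21936267-21937255, in the lncRNA Gm31813 and 139.5 kb from Tbl1xr1, had 17.7, 31.7 and 27.6 CPM in KO PTU/LID, against 8.07, 5.38 and 4.52 CPM in WT PTU/LID (2.15 ± 0.29, adjusted p = 2.39e-05). The call was lost within the higher chrM set (1.13, adjusted p = 0.211). Of 25 distal regions whose nearest coding gene was Tbl1xr1, 12 were higher in KO on PTU/LID (against 3.17% of all tested regions called higher) and 10 on chow (against 1.61%), and none was lower. Their median log2 fold changes were 0.98 and 0.72.

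Between Foxo1, a transcription factor of fasting metabolism, and Cog6, chr3:52502460-52503089 had 26.1, 19.1 and 19.97 CPM in KO PTU/LID, against 7.17, 6.24 and 3.08 CPM in WT PTU/LID (2.0 ± 0.28, adjusted p = 1.39e-05). A cluster of 3 nearby in Gm30173 had 40.4, 33.0 and 33.7 CPM against 12.1, 11.1 and 10.5 CPM (1.67 ± 0.20, adjusted p = 1.46e-05). Near Gadd45g, a stress-response gene, chr13:51911696-51912034 had 6.91, 7.31 and 7.14 CPM against 1.49, 2.37 and 2.05 CPM (1.82 ± 0.36, adjusted p = 0.00167). In each of these the KO and WT libraries were apart, which for the single regions was part of how they were chosen.

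Of the 39 lower regions on PTU/LID, the largest difference was at chr4:106262178-106262382 in Gm12724, 53.7 kb from Usp24, with 3.07, 2.35 and 2.92 CPM in KO, against 7.47, 8.61 and 10.7 CPM in WT (-1.71 ± 0.34, adjusted p = 0.00169). In Gm38475 between Lmntd1 and Tuba3b, chr6:145522885-145523364 had 5.63, 7.59 and 5.69 CPM against 16.4, 17.7 and 19.3 CPM (-1.48 ± 0.25, adjusted p = 0.000208). The other named regions were in Gm27243 (-1.52), near Tfap2d (-1.39) and between Glul, the glutamine synthetase gene, and Zfp648 (-1.36), all at low levels. These last 3 calls were lost without KO_239 or WT_155 each, the last pair also without KO_232 or WT_280, and that near Tfap2d without WT_135 too (adjusted p of 0.053 to 0.24). The clusters that were lower in KO on PTU/LID lay between Rai14 and C1qtnf3 (-1.06 ± 0.18, adjusted p = 0.000508), 118.0 kb from the chemokine gene Cxcl12 (-0.94 ± 0.24, adjusted p = 0.0155) and between Cntnap4 and Mon1b (-0.90 ± 0.21, adjusted p = 0.0093). The call near Cxcl12 was lost without KO_232 or WT_280 and the last without KO_239 or WT_135 (adjusted p of 0.056 to 0.078). Within the higher chrM set, which here is KO_211 against WT_135 with the spread taken from the other groups, 71 distal regions were called, and within the lower set, with 2 libraries a group, 416. Of the 30 regions chosen for description that were called for KO against WT on PTU/LID, 19 lost the call within the higher set and 3 within the lower. Leaving out KO_232 or KO_239 or WT_280 left 162, 158 or 145 calls.

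On chow, KO livers had 119 distal regions higher than WT and 46 lower (1.61% and 0.823% of all tested). The largest rise was at the pseudogene Cyp3a63-ps between Cyp3a41b and Cyp3a41a, cytochrome P450 genes known to be expressed more in livers of female mice. The region chr5:145634338-145637211 had 114, 198 and 188 CPM in KO chow, against 37.2, 44.7 and 41.1 CPM in WT chow (2.03 ± 0.25, adjusted p = 5.23e-05). On PTU/LID it had 45.5, 52.2 and 92.0 CPM in KO, against 35.0, 29.3 and 21.2 CPM in WT (1.17 ± 0.25, adjusted p = 0.00779), and this second call was lost under 6 of the alternative settings, leaving out KO_239 or WT_280 among them (adjusted p of 0.052). The Cyp3a copies are near-identical, so the source of these reads is uncertain. Regions on chromosome Y had 4.84 to 9.26 CPM in every library, and the labels give no sex.

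A second region at Cyp3a63-ps rose by 1.87 ± 0.30 (adjusted p = 0.000343) with 18.3, 32.9 and 21.2 CPM in KO chow, against 6.28, 5.70 and 7.73 CPM in WT chow. Between Ifng and Dyrk2, chr10:118761795-118762157 had 8.89, 9.30 and 11.9 CPM against 2.48, 3.17 and 2.76 CPM (1.86 ± 0.31, adjusted p = 0.000333). Near Aldh1a3, an enzyme of retinoic acid synthesis, chr7:66493102-66493576 had 6.71, 8.0 and 9.32 CPM against 1.32, 4.12 and 2.21 CPM (1.77 ± 0.41, adjusted p = 0.0142), a call lost without KO_190, WT_106 or WT_99 (0.076 to 0.139). The other named rises, of 1.76 and 1.75, lay in the Mup-ps9 cluster described for the diet, and the smaller was lost without KO_122 or WT_106 (adjusted p of 0.053 to 0.107). That cluster summed to 721, 530 and 620 CPM in KO chow, against 266, 302 and 218 CPM in WT chow (1.25 ± 0.14, adjusted p = 9.71e-06), and was also higher in KO on PTU/LID (0.83 ± 0.14, adjusted p = 0.000725). A cluster of 3 near Sult2a6, one of the sulfotransferase genes, which also exist in close copies, was higher by 1.33 ± 0.24 (adjusted p = 0.00205).

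Regions lower on chow included a low one in the lncRNA Gm31278 and a higher one near Ppargc1a. In Gm31278, chr8:116284559-116284930 had 2.36, 1.49 and 1.99 CPM in KO chow, against 8.93, 5.38 and 8.28 CPM in WT chow (-1.97 ± 0.34, adjusted p = 0.000501). It was lower on PTU/LID as well, with 3.32, 6.35 and 3.64 CPM in KO, against 14.9, 14.6 and 12.7 CPM in WT (-1.62 ± 0.28, adjusted p = 0.00044). Its genotypes did not overlap on either diet, which was part of how it was chosen. Dynlrb2 is its nearest coding gene, at 220.3 kb, and Maf, a basic leucine zipper transcription factor, is 577.9 kb away on the other side. The next region in Gm31278 was also lower in KO than in WT on chow (log2 fold change -1.76 ± 0.29, adjusted p = 0.000203).

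Ppargc1a encodes a coactivator of mitochondrial and gluconeogenic genes. The region chr5:51287685-51289349 lies 165.7 kb from it. This region holds 69 bases of the promoter window of the lncRNA Gm29924 shown above. Its neighbour holds 94 bases, and the rest of the window lies in the gap between them. In the first of these regions KO chow had 14.7, 23.1 and 23.4 CPM, against 86.8, 48.8 and 73.7 CPM in WT chow (-1.78 ± 0.24, adjusted p = 0.000107). On PTU/LID the genotypes overlapped, with 59.3, 58.9 and 58.9 CPM in KO, against 36.2, 80.1 and 63.2 CPM in WT (-0.03 ± 0.23, adjusted p = 0.971). The diet difference in KO was 1.53 ± 0.24 (adjusted p = 0.000115). Of the 6 distal regions nearest to Ppargc1a, 4 were lower in KO on chow (against 0.823% of all tested regions called lower) and 4 rose with the diet in KO (against 3.28% called higher).

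The other named regions lower on chow lay near Hhipl2 (-2.06 ± 0.40), near Kdm7a, a histone demethylase gene (-1.81 ± 0.40), and between Pard3 and Nrp1 (-1.77 ± 0.41), with adjusted p of 0.0024, 0.00859 and 0.0135; the second was lost without KO_190 and the last without KO_122, KO_190 or WT_96 (0.07 to 0.1). Within the higher chrM set 268 distal regions were called on chow, with chrM as a term 356, and with only the chow groups in the fit 293. Leaving out 1 library left 91 (KO_122), 94 (KO_146), 79 (KO_190), 78 (WT_106) or 72 (WT_99). The groups compared for genotype on the 2 diets share no library, but the spread comes from 1 fit over all 12 libraries, so the calls are not independent. Of 119 higher on chow and 253 on PTU/LID, 55 were in both lists (46.2% and 21.7%), and of 46 and 39 lower, 5 were in both (10.9% and 12.8%). Over all tested regions, 1.61% were called higher on chow and 3.17% on PTU/LID, and 0.823% and 0.698% lower. The overlap of these lists over all tested regions is not given here.

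**Figure D3:**
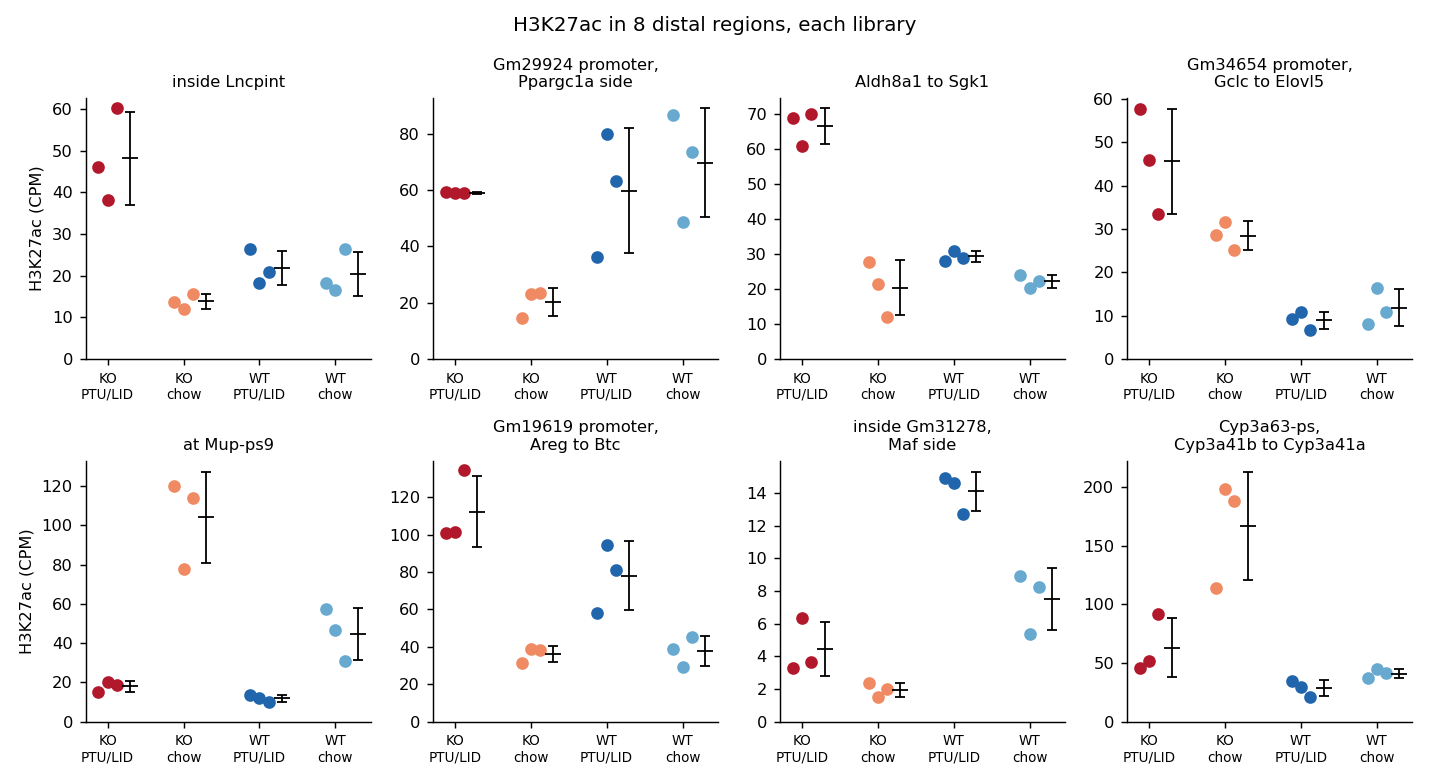
CPM of 8 distal regions in each library (points), with the group mean and SD (bars), for KO PTU/LID, KO chow, WT PTU/LID and WT chow. The Gm29924 region is low in KO chow alone (14.7 to 23.4 CPM), while the Gm34654 region is high in both KO groups (25.1 to 57.5 CPM).

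The interaction asks whether the diet effect differed between KO and WT, as the log2 fold change in KO minus that in WT. It was called at 15 distal regions, 13 positive and 2 negative (0.158% and 0.0722% of all tested). Within the higher chrM set, where KO_211 and WT_135 are the only PTU/LID libraries, the calls were 13 positive and 14 negative, so the positive majority was not seen there, and 12 of the 15 calls were lost. The Lncpint region with the rise in KO had a difference of 1.71 ± 0.30 (adjusted p = 0.00416), a call lost only within the higher chrM set (1.45, adjusted p = 0.0707). In the lncRNA 4933425B07Rik between Bmp4, a growth factor gene, and Cdkn3, chr14:46614849-46615988 had 25.8, 21.9 and 26.97 CPM in KO PTU/LID, against 5.99, 9.30 and 8.25 CPM in KO chow. WT had 15.2, 22.2 and 18.1 CPM on PTU/LID, against 19.01, 15.5 and 19.9 CPM on chow. KO chow alone stood low, and the interaction of 1.63 ± 0.31 (adjusted p = 0.00829) held under every alternative tried, the 1 of the 15 to do so.

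Near Kynu, an enzyme of tryptophan breakdown, chr2:43469359-43470994 had 43.7, 52.7 and 66.8 CPM in KO PTU/LID, against 27.04, 22.3 and 24.0 CPM in KO chow, and 33.5, 37.5 and 33.3 CPM in WT PTU/LID, against 45.6, 35.2 and 40.0 CPM in WT chow (interaction 1.38 ± 0.25, adjusted p = 0.00653). Near Dpyd, the enzyme that starts pyrimidine breakdown, chr3:118492086-118493698 had 57.0, 56.9 and 63.3 CPM against 25.04, 28.1 and 31.3 CPM in KO, and 23.9, 34.9 and 33.5 CPM against 48.1, 36.4 and 30.1 CPM in WT (1.38 ± 0.26, adjusted p = 0.00829). In both, the KO diets stood apart and the WT diets passed no test. The call near Kynu was lost within the higher chrM set (adjusted p = 0.162) and without KO_239 (0.0561), and that near Dpyd without WT_106 (0.0826). Leaving out 1 library moved the 15 calls to 5 (KO_232), 3 (KO_239), 8 (KO_122), 6 (KO_190), 27 (WT_135), 7 (WT_280), 3 (WT_106), 9 (WT_96) and 6 (WT_99).

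**Figure D4:**
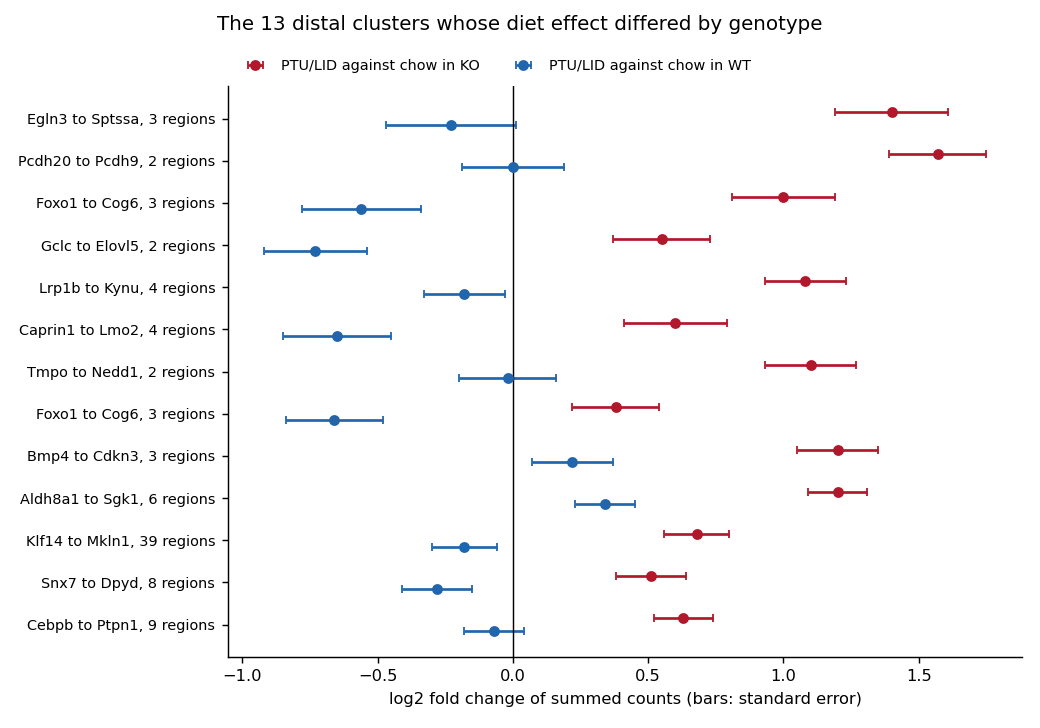
Log2 fold change of PTU/LID over chow with its SE in KO and in WT for the 13 distal clusters that passed the interaction test. The KO value is the larger in each, and the difference runs from 0.7 to 1.63.

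The 13 clusters with an interaction were all positive. The longest run of distal regions in the table, 39 regions over 72.6 kb inside Lncpint at chr6:31078411-31151013, was one of them. Klf14, a transcription factor gene, lies 119.5 kb to one side and Mkln1 248.0 kb to the other. Its summed level was 1516, 1415 and 1659 CPM in KO PTU/LID, against 998, 884 and 991 CPM in KO chow (0.68 ± 0.12, adjusted p = 0.00073). In WT it was 917, 1116 and 968 CPM on PTU/LID, against 1252, 1028 and 1128 CPM on chow (-0.18 ± 0.12, adjusted p = 0.386). KO PTU/LID stood above all other libraries. On PTU/LID it was higher in KO by 0.61 ± 0.12 (adjusted p = 0.00237), and the interaction was 0.86 ± 0.17 (adjusted p = 0.0178).

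Within this cluster the regions moved together in sign but not in size. For the diet in KO, 35 of 39 had a positive log2 fold change, with 15 called higher (against 3.28% of all tested regions), none called lower and a range of -0.25 to 1.80. For KO against WT on PTU/LID 11 were called higher (against 3.17%), and for the diet in WT and for KO against WT on chow none was called (edgeR). The interaction was positive at all 39 and was called at 2 (against 0.158% of all tested regions called positive). The interaction of the summed cluster was lost without KO_239, any 1 of KO_122, KO_146 and KO_190, WT_280, or WT_106 or WT_99, with adjusted p of 0.051 to 0.0724.

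**Figure D5:**
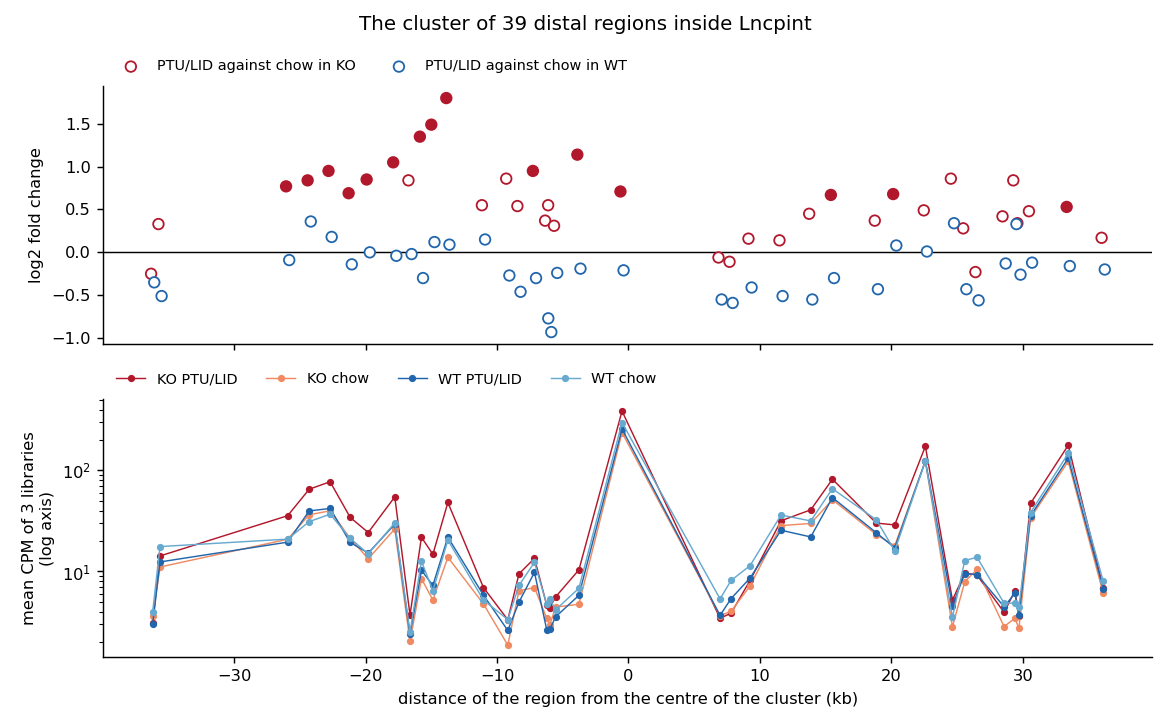
The 39 distal regions inside Lncpint by distance from the centre of the cluster: log2 fold change per region (top, where filled points passed adjusted p 0.05) and mean CPM per group on a log axis (bottom). For the diet in KO the values reach 1.80, while in WT none passed.

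Between Aldh8a1 and Sgk1, a kinase induced by glucocorticoids and serum, 6 regions summed to 254, 259 and 282 CPM in KO PTU/LID, against 115, 118 and 114 CPM in KO chow (1.20 ± 0.11, adjusted p = 6.02e-08). In WT they had 157, 160 and 159 CPM on PTU/LID, against 138, 111 and 126 CPM on chow (0.34 ± 0.11, adjusted p = 0.0681), and the interaction was 0.86 ± 0.16 (adjusted p = 0.00941). The libraries of each group lay close together, and the interaction was lost only without KO_190 (adjusted p = 0.0527). The interactions at the Pcdh20-Pcdh9 pair (1.57 ± 0.26, adjusted p = 0.00712), the 3 regions between Foxo1 and Cog6 (1.56 ± 0.29, adjusted p = 0.00941) and the 4 regions near Kynu (1.26 ± 0.21, adjusted p = 0.00712) held under every alternative tried for clusters. Clusters were refitted with RLE factors, DESeq2, the chrM set as a term and each library left out, but not within a chrM set.

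Of 4 other large clusters, that near Bcl6 was called and the other 3 were not. The 24 regions at chr2:30677241-30720374 between Cstad and 1700001O22Rik ranged from 220 to 252 CPM in KO PTU/LID, 246 to 271 in KO chow, 226 to 271 in WT PTU/LID and 275 to 295 in WT chow, with no call. The 18 regions between Wnt7b and Ppara, the gene of a fatty acid sensing nuclear receptor, ranged from 435 to 505, 436 to 494, 411 to 479 and 443 to 470 CPM in the same order, with no call in any comparison or region. The 21 regions between Cebpb and Ptpn1 had no call as a cluster, although 1 of its regions fell with the diet in WT and 2 in KO, and 2 were higher in KO on PTU/LID. The matching shares of all tested regions called were 1.9%, 2.94% and 3.17%. The 18 regions at chr16:24056394-24091727, 68.0 kb from Bcl6, were higher in KO on chow (404, 369 and 347 CPM in KO, against 265, 255 and 263 CPM in WT; 0.52 ± 0.13, adjusted p = 0.02) and on PTU/LID (293, 392 and 306 CPM against 214, 276 and 246 CPM; 0.43 ± 0.13, adjusted p = 0.0391). Each of these calls was lost on leaving out any of 4 libraries, KO_122 or a WT chow library for chow, and KO_232 or KO_239 or WT_135 or WT_280 for PTU/LID.

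Most regions of a called cluster, called or not, had the sign of its change. They had the direction of their cluster in 98.2% of cases for the diet in KO, 95.9% for the diet in WT, 95.9% for KO against WT on PTU/LID and 96.9% on chow. Since a cluster's sum is made of its regions, this is a description.

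Promoter windows of noncoding RNAs lay in 172 distal regions. Of these, 15 rose and 11 fell with the diet in KO (15.1% called), 10 rose and 4 fell in WT (8.14%), 15 were higher and 3 lower in KO on PTU/LID (10.5%), 14 were higher and 3 lower on chow (9.88%), and 2 had an interaction (1.16%). All tested regions had 6.21%, 3.7%, 3.86%, 2.43% and 0.23% called in the same order, and all tested distal regions 11.7%, 5.01%, 8.51%, 4.81% and 0.437%. Those described next were chosen after their values were seen. The region at the Gm19619 promoter, between the genes of the EGF receptor ligands amphiregulin (Areg, 134.8 kb) and betacellulin (Btc, 74.0 kb), rose with the diet in KO to 101, 102 and 134 CPM, against 31.4, 38.7 and 38.5 CPM (1.63 ± 0.18, adjusted p = 3.11e-08), and in WT to 58.3, 94.5 and 81.3 CPM, against 38.9, 29.5 and 45.3 CPM (1.04 ± 0.19, adjusted p = 0.000547). The diets did not overlap in either genotype; the WT call was lost within the higher chrM set (0.63, adjusted p = 0.19). The printed Gm35164 window has 142 bases in chr14:28649621-28650560 and 47 in a neighbouring distal region, which is not described here. The rest of the window, with its CEBP and STAT matches, lies in the gap between them. At the Gm35164 promoter, 122.6 kb from the Wnt ligand gene Wnt5a, chr14:28649621-28650560 fell to 9.72, 6.07 and 9.33 CPM in KO PTU/LID, against 32.7, 29.96 and 22.2 CPM in KO chow (-1.77 ± 0.24, adjusted p = 1.19e-06), and to 6.57, 9.26 and 5.13 CPM in WT PTU/LID, against 14.2, 20.9 and 18.5 CPM in WT chow (-1.33 ± 0.26, adjusted p = 0.00181). The WT call was lost within the lower chrM set (-0.99, adjusted p = 0.0919).

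The 1810053B23Rik window printed above lies over the gap between a pair of regions. The region chr16:93353344-93354174 had 25.4, 24.6 and 30.8 CPM in WT PTU/LID, against 14.4, 9.19 and 5.8 CPM in WT chow (1.40 ± 0.24, adjusted p = 0.000212). It was also higher in KO on chow (0.87 ± 0.24, adjusted p = 0.0387). Its neighbour chr16:93352287-93353267 had 17.8, 18.1 and 21.1 CPM in KO chow, against 4.79, 5.07 and 8.56 CPM in WT chow (1.65 ± 0.28, adjusted p = 0.00031). That neighbour also rose with the diet in WT (1.07 ± 0.29, adjusted p = 0.0307), and on PTU/LID its genotypes passed no test (0.59 ± 0.25, adjusted p = 0.205). The 2 smaller calls, 0.87 and 1.07, were each lost on leaving out any of several libraries: KO_122, KO_146, KO_190, WT_96 or WT_99 for the first and WT_280, WT_106 or WT_96 for the second. Farther along, the region that holds the Mir802 hairpin had 100, 165 and 176 CPM in WT PTU/LID, against 94.9, 67.8 and 51.9 CPM in WT chow (1.03 ± 0.24, adjusted p = 0.0187). This last call was lost within the higher chrM set and without any of WT_155 or WT_280 or WT_96 or WT_99 (adjusted p of 0.0765 to 0.117).

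Lexis1 is known in mouse as an lncRNA induced by the liver X receptor that lowers cholesterol synthesis, and lies beside the cholesterol exporter gene Abca1. The region at its promoter, chr4:53218327-53219058, had 12.5, 14.7 and 16.4 CPM in KO chow, against 5.95, 6.65 and 6.90 CPM in WT chow (1.17 ± 0.28, adjusted p = 0.0188). It had 15.9, 15.2 and 17.4 CPM in KO PTU/LID, against 15.2, 7.54 and 4.52 CPM in WT PTU/LID (0.88 ± 0.27, adjusted p = 0.057). The chow call was lost without KO_146 or KO_190 or any 1 of the 3 WT chow libraries (adjusted p of 0.0504 to 0.111). Mir99ahg is the host gene of miR-99a, let-7c and miR-125b, and its promoter region, chr16:77328889-77331671, had 84.9, 87.5 and 87.3 CPM in KO PTU/LID, against 158, 121 and 141 CPM in WT PTU/LID (-0.69 ± 0.16, adjusted p = 0.00571).

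Distal regions were also counted by their nearest coding gene, which need not be the gene they act on. Of 16 thyroid hormone response genes only Klf9 was nearest to any, with 2 regions and no call (edgeR; median log2 fold changes of -0.52 for the diet in KO and -0.40 in WT). Hepatocyte transcription factors had 107 distal regions near 10 of 28 genes. For the diet in KO 11 of these were higher and 2 lower, and in WT 2 were higher and 1 lower. For KO against WT 4 were higher and none lower on PTU/LID, and 2 were higher and 4 lower on chow. These shares stand against 6.21%, 3.7%, 3.86% and 2.43% of all tested regions called in those comparisons. The 5 higher regions of 13 near Cebpb and the 4 of 6 near Ppargc1a made up most of the rises in KO. Growth and survival genes had 35 regions near 4 of 17 genes, of which 4 rose with the diet in KO and 7 were higher in KO on PTU/LID, all near Id2, an inhibitor of basic helix-loop-helix factors and the nearest coding gene of 24 of the 35 (3.28% and 3.17% of all tested regions were called higher in these comparisons).

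Some coding genes had many distal regions. Klf14 had 42, of which 39 form the Lncpint run. Myc had 35, of which 5 were higher in KO on PTU/LID and 5 on chow (medians 0.62 and 0.70). Irs2, the insulin receptor substrate gene of liver, had 28, of which 10 were higher in KO on PTU/LID and 5 on chow (medians 0.78 and 0.49). Pik3r1, a regulatory subunit of PI3 kinase, had 26, of which 6 were higher in KO on PTU/LID and 5 on chow. None of the regions near these last 3 genes was lower in KO on either diet. These counts stand against 3.17% of all tested regions called higher on PTU/LID and 1.61% on chow, and other genes with many distal regions had none higher in KO on PTU/LID, among them Mkln1 (24 regions), Adgrl2 (23), Phlda1 (19) and Lpp (18).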

How the data were processed

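The values are whole-number counts of reads in shared regions for 12 H3K27ac libraries, as deposited by the authors; 4 input libraries are not analysed here. Tools named in the submitters' processing notes are MACS2 2.1.1, bedtools 2.26.0, Bowtie2 2.2.1, bcl2fastq 2.17.1.14 and Picard 2.8.1, and mm10 is the build they give. How the shared regions were made is not given in the sources used here. Region starts were taken as 0-based and are printed 1-based.

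Distances to coding genes came from RefSeq (GRCm38.p6). Counts were scaled by TMM, filtered with filterByExpr (minimum count 10) and fitted with edgeR 4.0.16 in R 4.3.3, robust quasi-likelihood, 1 mean per group over all 12 libraries, with no covariate. Adjusted p-values are Benjamini-Hochberg over all regions, and SEs are the log2 fold change divided by the root of F. CPM uses TMM-scaled totals. The procedure was tested on simulated data. Clusters join distal regions with gaps up to 10 kb.

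Named regions were, for each pairwise comparison, the 6 largest changes each way among called regions with non-overlapping groups, with the top of the interaction, the highest and longest regions, and the largest and most changed clusters; noncoding promoters and further interaction regions were added after their values were seen. The members and lists were chosen with earlier results of these data known. The planned motif search at region centres was not made, as no genome was used here. Alternatives were RLE factors, TMM over other regions, limma 3.58.1 voom with cyclic loess, DESeq2 1.42.0, other filters, fewer groups, each library left out, chrM sets, rows tracking chrM or of high density left out, other distances and other gaps. For clusters the alternatives were only RLE factors, DESeq2, the chrM set as a term, each library left out and other gaps. Libraries of 2965505 to 7416187 counts set the precision. A total of 0 other value columns were left unused.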

Additional observations from a re-analysis of the deposited data

Results flagged for a closer look

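The diet effect differed between KO and WT, by the interaction test of edgeR's quasi-likelihood fit (log2 fold change of PTU/LID over chow in KO minus that in WT), at 15 distal regions and 13 distal clusters.

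Of the regions, 13 had the larger value in KO. Inside Lncpint the difference was 1.71 at chr6:31100296-31101639 and 1.65 at chr6:31098481-31099443. It was 1.38 both near Kynu and near Dpyd, and 1.63 in 4933425B07Rik between Bmp4 and Cdkn3. Near Ppargc1a, it was 1.75 at the region that holds part of the Gm29924 promoter window. The larger region between Gclc and Elovl5 had 1.25, and the region near Aldh8a1 had 1.31. Between Cebpb and Ptpn1, a region that holds 77 bases of a promoter window of the lncRNA Gm32287 had 1.56. The other Gm32287 windows found in distal regions lie in the next region, which was not called for the interaction. The pair between Pcdh20 and Pcdh9 had 1.77 and 1.42. A region 185.3 kb from Sptssa and 256.2 kb from Egln3, a prolyl hydroxylase gene, had 1.65, and a region in the lncRNA Rmst had 1.36. The other 2 had the larger value in WT: -1.79 between Rai14 and C1qtnf3, and -1.65 between Mup8 and Mup9, where copies of the Mup genes make the source of reads uncertain.

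All 13 clusters had the larger value in KO. The run in Lncpint had 0.86, the 6 regions between Aldh8a1 and Sgk1 also 0.86, and the 9 regions between Cebpb and Ptpn1 had 0.7. The Pcdh20-Pcdh9 pair had 1.57, the Gclc-Elovl5 pair 1.28, the 3 regions in Gm30173 near Foxo1 1.56 and the 3 nearer to Foxo1 1.04. The clusters near Kynu had 1.26, near Sptssa 1.63, in 4933425B07Rik 0.98, in Rmst 1.12, between Caprin1 and Lmo2 1.25 and near Dpyd 0.79. With 14 of the 15 regions and 10 of the 13 clusters, at least 1 alternative setting or left-out library took the call away. Regions were also fitted within a chrM set, and clusters were not.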

How the results depend on the processing

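No called region or cluster described above changed direction under any alternative, but the balance of higher to lower calls did. Within the higher chrM set it was 115 to 116 for the diet in KO (252 to 150 with all libraries) and 13 to 14 for the interaction (13 to 2). For the diet in WT (90 to 82) it was 70 to 88 within the lower chrM set, 93 to 95 with a minimum count of 30, and 45 to 53, 45 to 52 or 40 to 41 without WT_155, WT_96 or WT_99; for clusters (62 to 46) it was 70 to 78 without WT_135. No paired analysis was possible because the groups share no library numbers. Counts of called distal regions that moved by over 1.5 times were as follows. Within the higher chrM set they were 231 (diet in KO), 60 (diet in WT), 71 (KO against WT on PTU/LID), 268 (on chow) and 27 (interaction). With the chrM set as a term they were 356 (on chow) and 54 (interaction), and 166 and 25 for clusters; with only the groups compared, 293 on chow. The interaction gave 33 with limma-voom, 23 with DESeq2 and 22 clusters with DESeq2. With distal set at over 25 kb the counts were 622 (diet in KO), 315 (diet in WT) and 25 (interaction). At over 100 kb they were 209, 70, 163 (KO against WT on PTU/LID), 74 (on chow) and 8, and at over 50 kb from a gene of any type 55, 28, 31, 29 and 2. In the same order of comparisons, leaving out 1 library gave 238 to 415, 63 to 277, 145 to 347, 72 to 117 and 3 to 27 regions, and 89 to 168, 41 to 148, 87 to 178, 40 to 67 and 4 to 22 clusters.

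Shares of counts in distal regions (KO PTU/LID, KO chow, WT PTU/LID, WT chow) were 6.61%, 6.42%, 6.2% and 6.21% without chrM and regions that track it, and 6.03%, 5.25%, 5.57% and 5.41% without distal regions of outlying density. Of 3175 values for named regions and clusters under alternatives, 2712 stayed on the same side of the threshold and 463 lost the call; where not stated, the cause was not tested. With a median of 25 to 59 counts per distal region in a library, small differences at low regions were not detectable at this depth.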
